A study of Mus musculus with 2 samples.

Results

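The genes described are those of the mitochondrial respiratory chain and its ATP synthase, in iPSCs, the induced pluripotent cells made by reprogramming body cells. They were chosen by symbol alone, as those that begin with mt-Nd, mt-Co, mt-Cytb or mt-Atp, with Nduf and the letter a, b, c, s or v before a number (without Ndufa4l2), with Cox4 to Cox8, or with Uqcr or Atp5. They number 92 of the 27998 genes in the matrix. Of these, 13 are encoded by the mitochondrial genome (symbols that start with mt-) and 79 by the nucleus. The droplet libraries came from mouse iPSCs grown in medium with serum, 1 library of SRFΔ/Δ cells (knockout) and 1 of SRFf/f cells (wild type), whose floxed Srf alleles are intact. Srf encodes serum response factor, a transcription factor. The labels name no sex, strain or number of clones, and give each genotype as 1 sample. No test between the genotypes was therefore possible and no p-value is given. Every interval below is a 95% interval of counting error only, which leaves out the spread between cultures, clones and libraries.

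The respiratory chain sits in the inner mitochondrial membrane. Complexes I, III and IV pass electrons from NADH to oxygen and pump protons, and complex V, the ATP synthase, uses the proton gradient to make ATP. Complex II holds no mitochondrially encoded subunit and does not match the rule. The mitochondrial genome encodes core subunits of complexes I, III, IV and V, and the nucleus encodes all others, so each of these complexes needs both genomes. Mouse pluripotent stem cells in the naive state use both glycolysis and respiration.

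Cells with at least 1000 detected genes were used, without the fibroblast-like cells (24 knockout and 13 wild-type cells). They were sorted into 3 classes by the share of mt- UMIs (unique molecular identifiers, each standing for 1 captured molecule) in the cell's total. The low class, under 1%, held 244 knockout and 16 wild-type cells. The middle class, 1 to 10%, held 729 and 890 cells. The high class, over 10%, held 71 and 33 cells. The middle class carried 18164091 knockout and 23211448 wild-type UMIs, at medians of 24434 and 26663 UMIs a cell. The other classes were shallower, with medians of 8632 and 16568.5 UMIs a cell in the low class and of 7668 and 7054 in the high class. In the wild-type low class 4 cells held 50% of the UMIs, and the largest cell held 20.5%.

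Srf had 3 UMIs in all analysed knockout cells and 204 in the wild-type cells. All 12 pluripotency markers were found in each class of both libraries. Their summed level in the middle class was 10146 UMIs per 1000000 (CPM) in the knockout library and 14029 CPM in the wild type, and over the classes it ranged from 9370 to 12327 CPM and from 9782 to 14029 CPM. Markers of primitive endoderm and of macrophages differed between the libraries. Primitive endoderm markers (10 genes) stood at 352.1 CPM in the knockout library and 13.8 CPM in the wild-type middle class, where 103 and 1 cells carried at least 3 of them. Over the classes they ranged from 107.9 to 352.1 CPM in the knockout and from 6.99 to 13.8 CPM in the wild type, where 9 of the 10 were at 0 in the low class. Macrophage markers (6 genes) stood at 138.0 CPM in the knockout and 45.7 CPM in the wild-type middle class. In the high class they stood at 365.5 and 3.82 CPM (213 UMIs and 1), and in the low class at 3.52 and 0 CPM. The 10 fibroblast markers stood at 9.30 and 10.6 CPM in the middle class, after the fibroblast-like cells had been left out by these same markers. Over the classes they ranged from 8.79 to 15.4 CPM and from 10.6 to 42.0 CPM, with Lum at 0 in every class. The part of macrophage and fibroblast cells in the results was not tested, and values without the cells that carry primitive endoderm markers are given below. The libraries shared 2 cell barcodes.

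In the middle class the mt- encoded genes took a larger share of the UMIs in the knockout library, and the nuclear-encoded genes differed little as a set. The 13 mt- encoded genes held 4.31% of knockout UMIs and 3.44% of wild-type UMIs. Their log2 ratio, knockout over wild type, was 0.33 (interval 0.32 to 0.33). The 79 nuclear-encoded genes held 2.96% and 2.95% of UMIs, a log2 ratio of 0.0052 (interval 0.000074 to 0.010). For every nuclear-encoded UMI the knockout cells thus held 1.46 mt- encoded UMIs and the wild-type cells 1.17. These are captured UMIs, not divided by transcript length, so the ratio compares the libraries and not the number of transcripts of different genes.

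The size of the mt- difference depended on the limits of the class. The knockout library held 253 cells between 5 and 10% mt- share and the wild-type library 111. With the middle class ending at 5%, the log2 ratio of the mt- set was 0.11 and that of the nuclear set 0.025. Over the 6545 genes that averaged 10 CPM or more the median log2 ratio was 0.09. It became -0.02 when libraries were scaled by trimmed means (TMM) and -0.04 when they were scaled by the median of ratios. The mt- set was then at 0.22 and 0.20 and the nuclear set at -0.10 and -0.12. Without the cells that carry primitive endoderm markers the 2 sets were at 0.32 and 0.00015.

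The mt- encoded members did not differ alike. Of the 13, 12 were higher in the knockout library and 6 were at least 25% higher, where 22.1% of all genes tested were. The member at least 20% lower was mt-Nd6, where 9.26% of all genes tested were. These counts use CPM only. TMM and the median of ratios lower the ratio of every member by the same amount, and the members were not recounted under them. The member that stood out was mt-Nd3, a subunit of the membrane arm of complex I (ENSMUSG00000064360, mitochondrial genome, 9459 to 9806, plus strand). It was at 835.1 CPM (interval 821.8 to 848.5) in the knockout and 364.8 CPM (357.0 to 372.6) in the wild-type cells. The knockout level was higher by 1.19 on the log2 scale (interval 1.16 to 1.23), and at equal depth, in cells thinned to 5000 UMIs, its mean was 4.24 and 1.95 UMIs a cell. It made up 1.94% of the mt- UMIs in the knockout library and 1.06% in the wild-type cells, so it differed beyond the set as a whole.

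The other complex I subunits of the mitochondrial genome were spread. mt-Nd1 was at 6265 CPM in the knockout library and 4570 CPM in the wild-type cells, a log2 ratio of 0.45. mt-Nd2 (0.22), mt-Nd4 (0.25) and mt-Nd5 (0.24) were below the ratio of the set. mt-Nd4l had 149.6 and 81.3 CPM, a log2 ratio of 0.88 (interval 0.80 to 0.97). mt-Nd6 was the member that was lower, at 12.5 CPM (interval 10.9 to 14.2) against 16.0 CPM (14.4 to 17.7), a log2 ratio of -0.36 (interval -0.60 to -0.12). It is also the member encoded on the other strand, and it overlaps mt-Nd5 by 14 bases on opposite strands. Whether reads there were counted by strand is not given in the sources used here.

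mt-Cytb, the catalytic core of complex III, was at 3056 CPM in the knockout library and 2359 CPM in the wild-type cells, a log2 ratio of 0.37. The 3 core subunits of complex IV lay close together, with mt-Co1 at 8492 and 6668 CPM (0.35), mt-Co2 at 5375 and 4419 CPM (0.28) and mt-Co3 at 6795 and 5803 CPM (0.23). Of the proton channel of complex V, mt-Atp6 was at 8563 and 7099 CPM (0.27). Its partner mt-Atp8 was at 95.4 CPM (interval 90.9 to 99.95) and 52.1 CPM (49.2 to 55.1), a log2 ratio of 0.87 (interval 0.77 to 0.98). The short genes mt-Nd4l and mt-Atp8 thus had higher ratios than the longer genes they overlap, mt-Nd4 by 7 bases and mt-Atp6 by 43. The rule that gave reads to overlapping genes is not stated, so these ratios are of counted UMIs and not of separate transcripts.

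The stretch that mt-Atp8 and mt-Atp6 share, in which a read cannot be given to 1 gene, is shown because these neighbours differed in ratio. It lies at chrM:7927-7969 (GRCm38, plus strand, GENCODE M21 transcripts) and is in capitals in the end of mt-Atp8 (chrM:7907-7969) and in the start of mt-Atp6 (chrM:7927-7989). Both stretches are coding sequence.
mt-Atp8: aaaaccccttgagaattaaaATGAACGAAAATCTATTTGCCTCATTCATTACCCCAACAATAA
mt-Atp6: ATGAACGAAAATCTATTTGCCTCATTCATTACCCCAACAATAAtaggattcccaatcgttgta

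**Figure D1:**
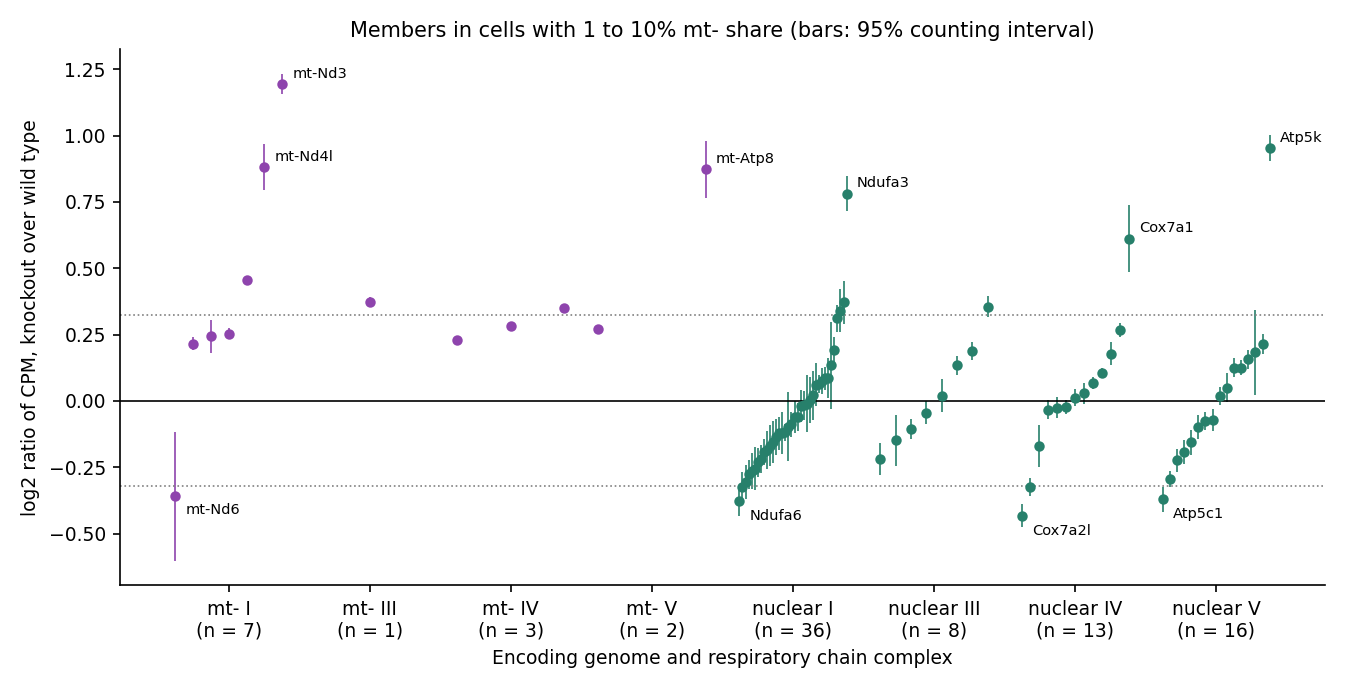
Log2 ratio of CPM, knockout over wild type, for the members with a mean of at least 10 CPM in cells with 1 to 10% mt- share, by encoding genome and complex (1 point a gene, bars are 95% counting intervals, dotted lines mark 25% higher and 20% lower). The mt- encoded genes lie above 0 except mt-Nd6, with mt-Nd3 at 1.19, while the nuclear-encoded genes scatter on both sides of 0.

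Of the 79 nuclear-encoded members, 73 averaged 10 CPM or more in the middle class. Of these, 32 were higher and 41 lower in the knockout library, and their median log2 ratio was -0.03, against 0.09 for all genes tested. At least 25% higher were 6, against 22.1% of all genes tested, and at least 20% lower were 5, against 9.26%. With TMM scaling 3 were higher and 14 lower by these limits, against 13.8% and 16% of all genes under that scaling. With the median of ratios 3 were higher and 14 lower, against 13% and 16.9%. At least 1.5-fold, 3 were higher (7.06% of all genes tested were) and 0 lower (2.61% were). By complex, the summed log2 ratio was -0.04 for the 36 members named for complex I, 0.08 for the 8 of complex III, 0.03 for the 18 of complex IV and 0.0024 for the 17 of complex V.

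The 3 members past 1.5-fold belong to different complexes. Atp5k, subunit e of the ATP synthase, which lies where ATP synthase dimers meet, was at 472.1 CPM (interval 462.1 to 482.2) in the knockout and 243.9 CPM (237.6 to 250.4) in the wild-type cells. Its log2 ratio was 0.95 (interval 0.90 to 1.001), and thinned cells held a mean of 2.36 and 1.19 UMIs. Ndufa3, an accessory subunit of complex I, was at 248.5 and 144.6 CPM, a log2 ratio of 0.78 (interval 0.72 to 0.85). Cox7a1, the form of a complex IV subunit known from heart and skeletal muscle, was at 62.5 and 40.9 CPM, a log2 ratio of 0.61 (interval 0.49 to 0.74). All 3 kept this direction under every alternative run for them, but Cox7a1 was within 1.5-fold under several, at 0.56 without the cells that carry primitive endoderm markers, 0.58 with fibroblast-like cells kept and 0.50 with TMM. Across the other classes Ndufa3 and Atp5k were also higher in the knockout, Ndufa3 by 0.66 in the low and 0.79 in the high class and Atp5k by 1.63 and 0.61, while the intervals of Cox7a1 there included 0.

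The other members among the 10 highest had smaller ratios. Ndufa1 (0.37), Ndufa5 (0.34) and Ndufb7 (0.31), accessory subunits of complex I, and Uqcr11 (0.36), a small subunit of complex III, were followed by Cox6c (0.27), Atp5e (0.21) and Ndufa13 (0.19). Ndufb7 and Ndufa13 lie on chromosome 8, whose share of UMIs was raised in 489 of 1044 knockout and 93 of 939 wild-type cells. Without those cells Ndufb7 was at 0.15, and Ndufa13 was on the other side of 0, at -0.06. Cox4i1, the third member on that chromosome, went from 0.07 to -0.11.

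At the low end stood Cox7a2l, a protein that helps to join complexes III and IV into supercomplexes. It was at 373.2 CPM (interval 364.4 to 382.2) in the knockout and 504.0 CPM (494.9 to 513.2) in the wild-type cells, a log2 ratio of -0.43 (interval -0.48 to -0.39). It was lower in the knockout in the low (-0.65) and high (-0.63) classes too. Ndufa6 (-0.38), Ndufv3 (-0.33), Ndufb10 (-0.31), Ndufb5 (-0.28), Ndufv2 (-0.26) and Ndufs4 (-0.26) of complex I followed. Of complex V, Atp5c1, the gamma subunit that turns in the rotor, was at -0.37, and Atp5g2, a copy of the gene for the membrane ring, was at -0.29. Cox5a, a subunit of complex IV, was at -0.32.

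Promoters of the members with the highest and lowest ratios are shown to set them beside the motifs of factors known to bind respiratory chain genes. RefSeq sequences (GRCm38.p6) that run from 250 bases before to 50 bases after the start were matched by symbol for 63 of the 79 nuclear-encoded members. The palindromic motif of NRF1, its letters shown in capitals in Atp5k, was in 5 of the 63 (7.94%) and in 0.971% of all 32851 promoters of this length. The ETS motif, CCGGAAG, which GABPA binds, was in 14 (22.2%) and in 8.86% of all promoters. The CArG box, which SRF binds, was in 0 of the 63 and in 1.63% of all promoters. Both strands were searched, and the motifs do not overlap each other in the sequences printed. A match is a description of the letters and shows no binding. In capitals are the NRF1 motif and, after it, the reverse complement of the ETS motif in Atp5k (chr5:108434350-108434649, minus strand). Ndufa3 (chr7:3617123-3617422, plus strand) and Cox7a2l (chr17:83514284-83514583, minus strand) held none of the 3 motifs in this window.
Atp5k: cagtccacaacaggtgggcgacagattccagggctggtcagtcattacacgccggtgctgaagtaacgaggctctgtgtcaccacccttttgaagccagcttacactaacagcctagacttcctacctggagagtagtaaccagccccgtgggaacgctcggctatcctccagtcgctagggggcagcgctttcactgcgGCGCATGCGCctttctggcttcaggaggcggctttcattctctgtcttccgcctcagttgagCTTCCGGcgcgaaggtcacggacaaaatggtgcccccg
Ndufa3: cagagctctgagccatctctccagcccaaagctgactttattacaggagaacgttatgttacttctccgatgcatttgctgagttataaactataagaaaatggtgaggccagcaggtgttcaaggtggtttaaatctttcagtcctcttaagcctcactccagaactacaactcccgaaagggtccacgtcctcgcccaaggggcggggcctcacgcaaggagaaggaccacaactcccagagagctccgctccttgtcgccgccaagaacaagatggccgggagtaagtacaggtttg
Cox7a2l: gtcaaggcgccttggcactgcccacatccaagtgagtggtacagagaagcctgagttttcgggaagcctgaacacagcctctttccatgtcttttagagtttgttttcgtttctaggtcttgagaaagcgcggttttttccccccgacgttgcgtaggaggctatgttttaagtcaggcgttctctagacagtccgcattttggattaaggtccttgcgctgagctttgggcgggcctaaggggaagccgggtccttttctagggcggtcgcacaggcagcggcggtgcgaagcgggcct

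Several subunits exist as isoforms from different genes. Their levels are not divided by length, so each is compared between the libraries and not with its partner. Cox4i1 was at 1553 CPM in the knockout library and 1483 CPM in the wild-type cells. Cox4i2, a form known from lung and low oxygen, had 141 and 83 UMIs (7.76 and 3.58 CPM). Its log2 ratio of 1.11 (interval 0.72 to 1.53) rests on a level below the 10 CPM minimum. Cox6a1 was at 474.3 and 419.1 CPM, and the muscle form Cox6a2 had 1 and 3 UMIs. Cox6b1 was at 502.8 and 511.9 CPM, and Cox6b2, known from testis, was at 118.1 and 132.8 CPM (log2 ratio -0.17). Cox7a2 was at 811.9 and 805.2 CPM, a log2 ratio of 0.01. Cox8a was at 1197 and 1217 CPM, while Cox8b had 0 and 1 UMIs and Cox8c 12 and 28. Cox7b2 had 25 and 45 UMIs.

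The ring of the ATP synthase is encoded by 3 genes with the same mature product. Atp5g1 was at 957.9 CPM in the knockout library and 878.3 CPM in the wild-type cells, Atp5g2 at 785.0 and 962.0 CPM, and Atp5g3 at 266.5 and 257.5 CPM. Their log2 ratios were 0.13, -0.29 and 0.05, and Atp5g2 was lower in the knockout under every alternative run for it. Atp5s, whose symbol matches the rule although RefSeq now calls it Dmac2l, had 108 UMIs (5.95 CPM) and 245 UMIs (10.6 CPM), a log2 ratio of -0.82 (interval -1.17 to -0.50), with the mean of both below 10 CPM.

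The classes were compared next, and mt- levels across them follow from how the classes were cut. The mt- encoded genes held 0.295% of knockout UMIs and 0.336% of wild-type UMIs in the low class, and 25.4% and 18.8% in the high class. The nuclear-encoded genes did not follow them down. In the low class they held 3.24% of knockout and 2.65% of wild-type UMIs, near the 2.96% and 2.95% of the middle class. To take the mt- UMIs out of the total, the nuclear-encoded share is given below among UMIs other than mt-. In the low, middle and high classes of the knockout library it was then 3.25%, 3.09% and 4.17%. The same classes of the wild-type library held 2.66%, 3.05% and 3.64%. The high classes were highest in both libraries. The low class was above the middle class in the knockout library and below it in the wild type, where every cell weighted alike gave a log2 ratio of only -0.03. By the median cell, the low class was above the middle class in both libraries, at 3.27% and 3.09% in knockout cells and at 3.07% and 3.003% in wild-type cells.

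**Figure D2:**
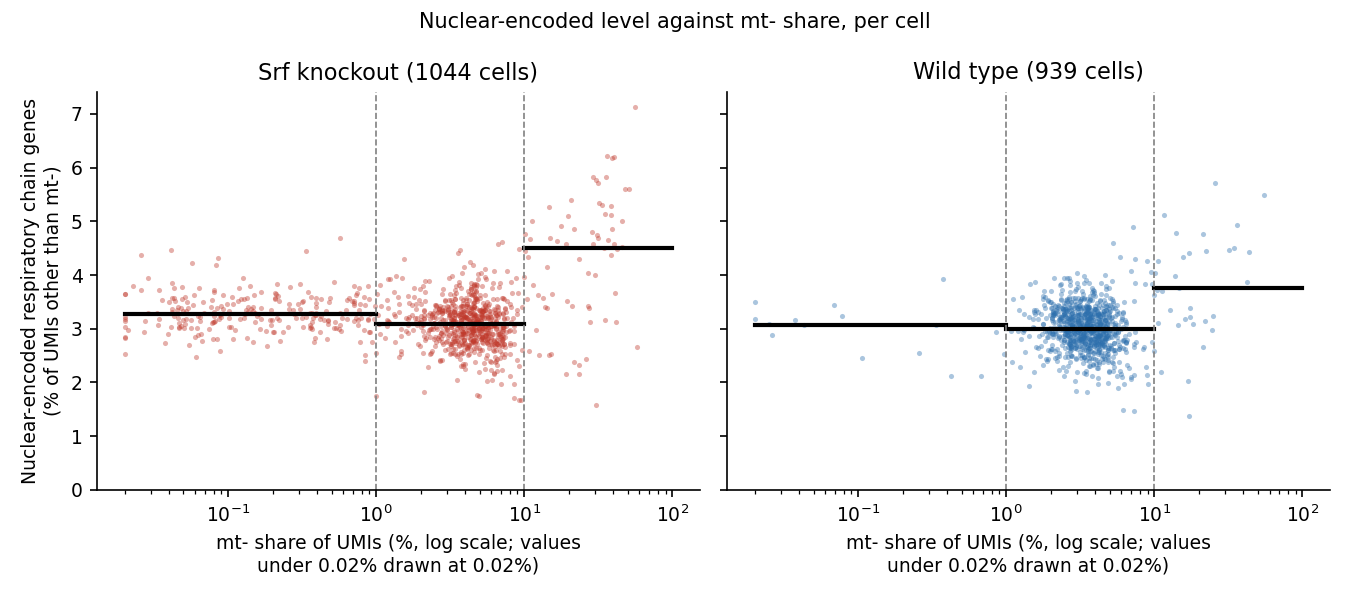
Each point is 1 cell, with its mt- share of UMIs (percent, log axis) against the share of the nuclear-encoded respiratory chain genes among its UMIs other than mt- (percent). Dashed lines divide the classes at 1 and 10%, and thick lines are class medians, which lie at 3.27%, 3.09% and 4.50% in the knockout library and at 3.07%, 3.003% and 3.76% in the wild-type library.

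Between the genotypes, the mt- set had a log2 ratio of -0.19 (interval -0.28 to -0.09) in the low class and 0.43 (0.42 to 0.45) in the high class. The nuclear set was at 0.29 (0.26 to 0.32) and 0.07 (0.03 to 0.11). For low cells the median over all 5815 genes tested was -0.20. Of 74 nuclear-encoded members, 36 were at least 25% higher there in the knockout, against 25% of all genes tested, and 4 at least 20% lower, against 45.1%. At least 1.5-fold, 16 were higher (14.3% of all genes were) and 3 lower (35.4% were). TMM scaling moved the median over all genes in the low class to 0.25. It turned the mt- set there to 0.25, and the nuclear set was then at 0.72. For high cells the median was -0.02 over 73 members and -0.19 over all 7141 genes. There 13 members were at least 25% higher (22.8% of all genes were) and 11 at least 20% lower (40.9% were), and past 1.5-fold 2 were higher (14.5% were) and 3 lower (27.4% were). Knockout and wild-type sums were 2844160 and 286036 UMIs in the low class and 582738 and 261927 in the high class. The 0.5 added counts thus weigh more on the wild-type side and lower the ratios of genes near 10 CPM. The medians and shares of all genes given here carry this, and no higher minimum level was run for them.

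The make-up of the mt- UMIs was then compared by class. mt-Nd3 was higher in the knockout in the high class by 1.22 on the log2 scale (interval 1.07 to 1.38), close to the middle class. Among low cells it had 131 and 8 UMIs, and the interval of its log2 ratio of 0.64 ran from -0.30 to 1.96. mt-Nd1 made up 18.3% of the mt- UMIs in low knockout cells and 11.3% in low wild-type cells, against 14.5% and 13.3% in the middle class. mt-Co1 made up 15.9% and 23.9% in the low class, against 19.7% and 19.4% in the middle class. The wild-type low class held only 962 mt- UMIs in its 16 cells.

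**Figure D3:**
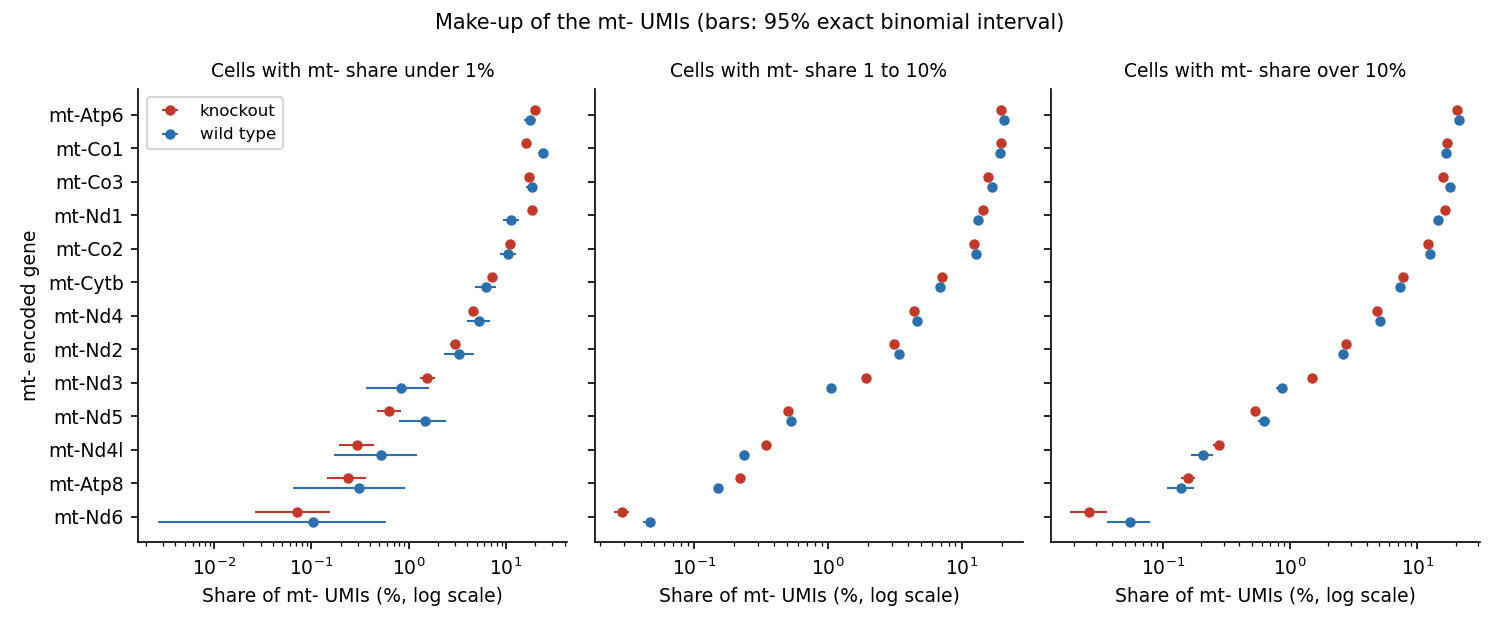
Share of each mt- encoded gene in the mt- UMIs (percent, log axis) in the 3 classes of cells, for the knockout (red) and wild-type (blue) library, with 95% exact binomial intervals. mt-Nd3 is apart between the libraries in the middle class, at 1.94% and 1.06%, and in the high class, at 1.49% and 0.859%, while the wide intervals of the low class come from 962 wild-type mt- UMIs.

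Within each library, the nuclear-encoded members changed their order in the high class, and did so alike in both libraries. Relative to the middle class of the same library and among UMIs other than mt-, the nuclear set was higher by 0.43 on the log2 scale (interval 0.41 to 0.45) in the knockout library and by 0.26 (0.22 to 0.29) in the wild type. The median over all genes tested was higher too, at 0.38 over 7414 and 0.58 over 7330 genes. The high classes hold far fewer UMIs than the middle classes, so the 0.5 added counts raise the ratios of genes near 10 CPM. The medians and shares of all genes are in part raised by this, and values at 100 CPM or more are less open to it. At least 25% higher were 34 of 73 members in the knockout library and 31 in the wild type, against 52.4% and 60.1% of all genes, and at least 20% lower were 10 and 12, against 17.2% and 14.8%. At least 1.5-fold higher were 21 and 16 members, against 40.5% and 49.7% of all genes. Among genes of at least 100 CPM, 25.8% of 66 members and 13.5% of 1256 genes were that much higher in the knockout. In the wild type 19.7% and 16.0% of them were. Lower by that fold were 1 and 5 members, against 8.71% and 8.32% of all genes. The libraries have no cell in common, and across the 73 members their shifts had a Pearson correlation of 0.88, given as a description. Over all 6736 genes tested in both it was 0.69, and among 1256 genes of at least 100 CPM it was 0.83, so like shifts were not particular to these genes.

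Of the members, 13 were at least 1.5-fold higher in the high class of both libraries, 61.9% of those in the knockout library and 81.2% of those in the wild type. These are 17.8% of the 73 members, below the 30.6% of all 6736 genes (2058 genes) that were higher in both, which are 81.5% and 65.5% of the genes higher in each library. Among genes of at least 100 CPM the order turned, with 10 of 66 members (15.2%) higher in both, against 126 of 1256 genes (10.0%). Cox6a1, a small subunit of complex IV, went from 495.7 CPM of UMIs other than mt- in the middle class to 1805 CPM in the high class of the knockout, and from 434.1 to 1387 CPM in the wild type. These are log2 ratios of 1.87 (interval 1.76 to 1.97) and 1.68 (1.504 to 1.84). Cox4i1 went from 1623 to 3414 CPM and from 1536 to 3127 CPM (1.07 and 1.03). Ndufa9, which lies at the junction of the 2 arms of complex I, had ratios of 1.87 and 1.44, on low levels of 48.2 and 51.0 CPM in the middle class.

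Core and accessory subunits were both among the 13. Atp5b, the catalytic beta subunit of the ATP synthase, went from 751.4 to 1865 CPM in the knockout and from 735.5 to 1514 CPM in the wild type (1.31 and 1.04). The alpha subunit gene Atp5a1 had ratios of 0.68 and 0.59. Uqcrc1 and Uqcrc2, the large core proteins of complex III, had 1.35 and 0.89, and 1.52 and 0.86. Ndufv1, which holds the NADH site of complex I, had 1.40 and 1.24, and Ndufs4 1.31 and 1.08. Ndufb9 (1.44 and 0.90), Ndufa10 (0.85 and 0.75), Ndufa13 (0.69 and 0.91) and Ndufa5 (0.67 and 0.65) complete the group. Some other core subunits did not share these shifts, with Ndufs7 at -0.21 and -0.33, Ndufs8 at -0.13 and -0.07 and Ndufv2 at -0.46 and 0.17. The 13 genes were selected here by their shifts, so their values describe them and test nothing.

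Lower at least 1.5-fold in both libraries was 1 member (1.37%), against 3.27% of all genes. It was Cox7a2l, which went from 390.0 to 186.2 CPM in the knockout (-1.06, interval -1.40 to -0.75) and from 522.0 to 263.3 CPM in the wild type (-0.97, interval -1.39 to -0.61). Uqcrfs1, the iron-sulfur protein of complex III, was at -0.46 and -0.73. Atp5e, the epsilon subunit of the ATP synthase, was at -0.41 and -0.85. By complex, complex IV had the highest summed shift, 0.69 in the knockout library and 0.47 in the wild type, and complexes III (0.27 and -0.06) and V (0.19 and 0.07) lower ones. RNA of other kinds moved beside these shifts. Cytosolic ribosomal protein genes went from 37.95% to 27.2% of the UMIs other than mt- in the knockout, while wild-type cells went from 38.9% to 27.7%. The nuclear noncoding RNA Malat1 went from 8863 to 19270 CPM and from 6103 to 20634 CPM. Their part in the result was not tested.

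**Figure D4:**
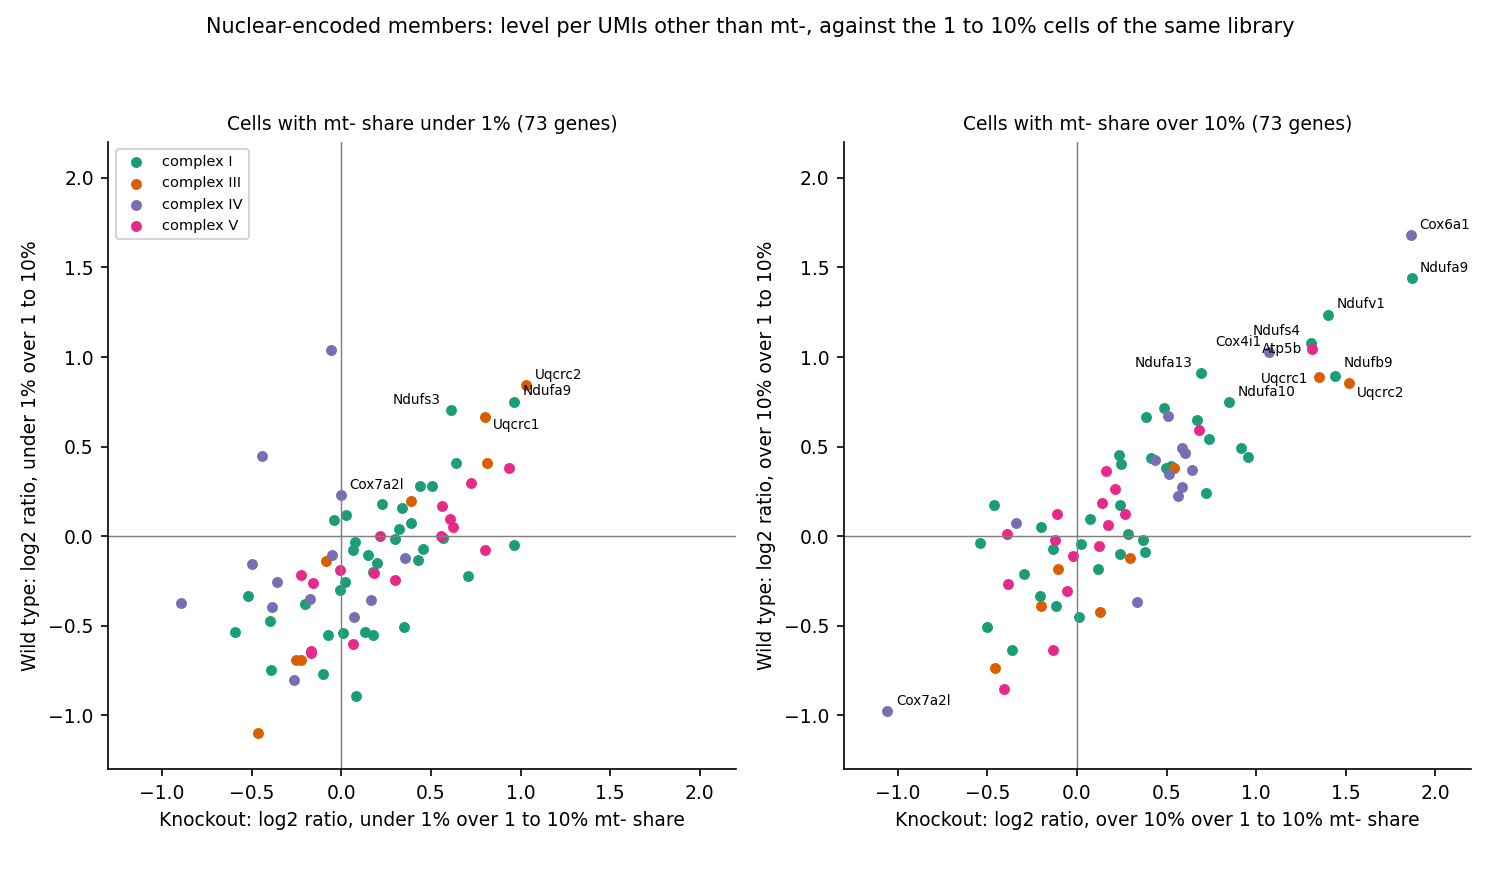
Log2 ratio of each nuclear-encoded member in cells under 1% (left) or over 10% mt- share (right) over the 1 to 10% cells of the same library, per UMIs other than mt-, in the knockout (x axis) against the wild type (y axis), 73 genes a panel, coloured by complex. On the right the points follow the diagonal, from Cox7a2l at -1.06 and -0.97 to Cox6a1 at 1.87 and 1.68, and on the left they are less tight.

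The shifts of low cells were less alike between the libraries. Relative to the middle class, the nuclear set was at 0.07 (interval 0.06 to 0.08) in the knockout library and at -0.20 (-0.23 to -0.17) in the wild type, beside medians over all genes of -0.15 and 0.11. In the wild-type low class, of 286036 UMIs, the 0.5 added counts raise the ratios of genes near 10 CPM. At least 25% higher were 25 of 73 members in the knockout (26.9% of all genes were) and 10 of 74 in the wild type (37.3% were), and at least 20% lower 10 (43.3% were) and 24 (25.6% were). At least 1.5-fold higher were 13 of 73 members in the knockout (14.9% of all genes were) and 6 of 74 in the wild type (25.2% were). Higher in both were 4, namely Uqcrc1 (0.80 and 0.67), Uqcrc2 (1.03 and 0.84), Ndufa9 (0.96 and 0.75) and Ndufs3 (0.61 and 0.70). They are 5.48% of the 73 members, close to the 5.81% of all 5744 genes that were higher in both. Of the 66 members of at least 100 CPM, 1 (1.52%) was higher in both, against 4.14% of 1256 genes. Lower by 1.5-fold were 2 members in the knockout (35.4% of all genes were) and 10 in the wild type (16.7% were), with 0 in common, where 12.2% of all genes were lower in both. The correlation of the shifts between the libraries was 0.61 over 73 members and 0.40 over all 5744 genes. At 100 CPM or more it was 0.59 over 66 members and 0.58 over 1256 genes. Genes of the ATP synthase had a summed shift of 0.33 in the knockout library and -0.08 in the wild type, while those of complex IV were lower in both, at -0.21 and -0.25. Cox6a1 and Ndufb9, among the highest in the high class, were lower here in both libraries, at -0.90 and -0.37 and at -0.59 and -0.53. Malat1 was at 1507 CPM of UMIs other than mt- in low knockout cells, against 8863 CPM in the middle class, and at 10359 and 6103 CPM in the wild type, and its part was not tested.

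Cell by cell, the mt- and nuclear-encoded sums were weakly and negatively related. In middle-class cells thinned to 5000 UMIs the mt- sum had a median of 216 UMIs in the knockout library and 173 in the wild type, and the nuclear sum 147 and 144. Their Pearson correlation on log2(sum + 1) was -0.23 over 722 knockout cells and -0.16 over 885 wild-type cells, with 7 and 5 cells too shallow to use. Both sums come from the same 5000 UMIs, so more of the one leaves less for the other. With the mt- UMIs kept out of the thinning, the correlations were -0.14 over 720 cells and -0.12 over 883 cells. Within each genome the parts were more closely tied. Nuclear-encoded genes named for complex I correlated with the other nuclear-encoded genes at 0.47 and 0.495. The mt- encoded genes of complex I correlated with the other mt- encoded genes at 0.79 and 0.76. Low cells had median mt- sums of 7 and 5.5 UMIs, too few to read the correlations there, -0.07 over 227 and -0.44 over 16 cells. In the high class, with mt- UMIs kept out of the thinning, the correlation was 0.29 over 40 knockout cells and -0.03 over 19 wild-type cells, and without that step -0.32 over 65 and -0.23 over 32 cells. All cells of a value share 1 library, and no p is given.

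Along the mt- share within the middle class the nuclear-encoded share among UMIs other than mt- was level to slightly falling. It was 3.11%, 3.12% and 3.02% in knockout cells of 1 to 2.5%, 2.5 to 5% and 5 to 10% mt- share, and 3.13%, 3.04% and 2.97% in the wild-type cells. Above 10% it was 3.88% between 10 and 20% and 4.44% above 20% in the knockout (26 and 45 cells), and 3.48% and 4.07% in the wild type (20 and 13 cells). The higher share of the high class thus did not begin within the middle class in either library.

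Other genes of the pathway were set beside the members in the middle class. Complex II, cytochrome c (Cycs) and cytochrome c1 (Cyc1), 6 genes and all tested, had a median log2 ratio of -0.10, with 0 at least 25% higher or 20% lower. Sdhb, the iron-sulfur subunit of complex II, was lowest at -0.30 and Sdha, its flavoprotein, highest at 0.17. Cyc1, at -0.09, is a subunit of complex III that the symbol rule leaves out. Of 29 assembly factors in the matrix 25 were tested, with a median of 0.08, 1 at least 25% higher and 2 at least 20% lower. Of 77 genes of the mitochondrial ribosome 76 were tested, with a median of -0.03, 1 higher and 2 lower. Of 25 import genes 20 were tested, with a median of 0.03, 3 higher and 1 lower. The 13 genes of the citrate cycle had a median of 0.02, 0 higher and 1 lower. Beside them stand the 22.1% and 9.26% of all genes that were higher and lower.

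Genes that keep up mitochondrial DNA and RNA were set beside the same shares. Of 17 in the matrix 11 were tested, with a median of 0.22 beside 0.09 for all genes, 2 at least 25% higher, a share near that of all genes, and 0 at least 20% lower. Of the 11, 8 were higher and 3 lower. The 2 at least 25% higher were Peo1, at 0.49 (interval 0.28 to 0.69), and Pnpt1, at 0.49 (0.23 to 0.74). Tfam, which packages mitochondrial DNA and starts its transcription, was at 0.22 (interval 0.11 to 0.32), and Slirp, which stabilises mitochondrial mRNA, at 0.29 (0.24 to 0.35). On the lower side were Tefm, a transcription elongation factor, at -0.27 (-0.50 to -0.04), and Ssbp1, which binds single-stranded mitochondrial DNA, at -0.07 (-0.13 to -0.0077). Of 7 regulators of mitochondrial biogenesis 5 were tested, with a median of 0.33 beside 0.09 for all genes. At least 25% higher were 3, where 22.1% of all genes tested were. Nrf1 was at 0.37 (interval 0.22 to 0.51), Esrra at 0.33 (0.10 to 0.57) and Pprc1 at 0.33 (0.19 to 0.46), while Gabpa was at 0.12 (-0.07 to 0.30). Ndufa4l2, which the rule leaves out and which is known to be induced by low oxygen, was at -1.54 (interval -1.75 to -1.34). In the low class 0 of 5 tested regulators were at least 25% higher (25% of all genes were) and 2 at least 20% lower (45.1% were). In the high class 0 of 4 passed either limit, where 22.8% and 40.9% of all genes did. Scalings other than CPM were not run for these lists. TMM and the median of ratios lower every middle-class ratio by the same amount. Esrra and Pprc1 stood close to the log2 limit of 0.32, so the count of 3 regulators depends on the scaling.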

How the data were processed

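Droplet libraries (10x Genomics Chromium, per the labels' protocols) of 1 knockout and 1 wild-type culture were used. The deposited values are whole-number UMI counts per gene and cell, not normalised, per the file headers. Cell Ranger 2.0.0, Seurat 3.1.1 and the build mm10 are named in the submitters' processing notes. The rules for counting reads of overlapping or near-identical genes and for calling cells, and the sequenced transcript end, are not given in the sources used here, and 25 of the 79 nuclear-encoded members overlap another gene of the matrix, 4 of them on the same strand (Cox4i1 and Ndufa13 among them). Positions are from GENCODE M21 (GRCm38), in which 98.7% of the 27998 gene identifiers were found.

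The knockout file held 1073 cells and 22277996 UMIs, the wild-type file 954 cells and 24005849 UMIs. Cells with at least 1000 genes were kept. Cells with at least 3 of 10 fibroblast markers, at 0.2% or more of their UMIs, were left out. Doublets were kept; Scrublet (scanpy 1.11.5) called 1 knockout and 2 wild-type cells. UMIs were summed over cells, scaled to CPM and compared as log2 ratios with 0.5 counts added. Counts of genes between the libraries used those that averaged 10 CPM or more over both libraries. Counts between classes of a library used those that averaged 10 CPM or more over the 2 classes compared, per UMIs other than mt-. Intervals are exact (Poisson, conditional binomial for ratios, Clopper-Pearson for shares). UMI sums were not divided by length. Each cell was thinned to 5000 UMIs without replacement for correlations. All 13 mt- encoded members were named, as were the 10 highest and 10 lowest nuclear-encoded ones, those below 10 CPM and the isoform pairs. Atp5sl (log2 ratio 0.18) and Atp5s match the rule by name. Members were given to complexes by symbol alone, so these 2 are summed with complex V. Ratios and thinning were tested on simulated data. TMM factors came from edgeR 4.0.16. Other alternatives varied scaling, cells, filters and class limits. Members and lists were chosen with earlier results of these data known.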

Additional observations from a re-analysis of the deposited data

Results flagged for a closer look

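The summed UMIs of the nuclear-encoded set moved in opposite directions in the 2 libraries between low and middle cells, which drew attention to it. Among UMIs other than mt-, its log2 ratio in cells under 1% mt- share over cells of 1 to 10% was 0.0719 (interval 0.06 to 0.08) in the knockout. In the wild type it was -0.199 (interval -0.23 to -0.17). The difference between the libraries was not tested, as each is 1 sample. The wild-type value rests on 16 cells, 4 of which held 50% of their UMIs, and with every cell weighted alike it was -0.03, against 0.09 in the knockout. The wild-type direction turned with the median cell, at 3.07% of UMIs other than mt- in low and 3.003% in middle cells, and the knockout medians were 3.27% and 3.09%. The median depths of the low cells were 8632 and 16568.5 UMIs.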

How the results depend on the processing

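No paired analysis was possible because there is 1 library of each genotype. A set's ratio counted as moved when it left its counting interval, a median or correlation when it shifted by 0.1, and a count when it changed by over 1.5 times. The shifts per all UMIs were added after seeing the data, as was the comparison with coding length. Unless the construction shows it, the cause was not tested. Of 330 values of the 33 named genes under alternatives, 329 kept their sign. The exception, Ndufa13, is given above. Many values still left the counting interval of their gene. Of the 33 genes, 31 did with TMM and 31 with the median of ratios. Without raised chromosome 8 share 24 did, with the class ending at 5% 20 did, and with each other alternative 11 or fewer.

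Knockout over wild type, in the order low, middle and high class, the mt- set was at -0.19, 0.33 and 0.43. TMM gave 0.25, 0.22 and 0.62, the median of ratios 0.29, 0.20 and 0.59, and cells weighted alike 0.0016, 0.29 and 0.37. Without cells of raised chromosome 8 share it was -0.39, 0.47 and 0.47. In the middle and high classes it was 0.33 and 0.52 with at least 2000 genes a cell, 0.32 and 0.46 without cells with primitive endoderm markers, and 0.34 and 0.55 per UMIs other than mt-. In the middle class it was 0.32 with fibroblast-like cells kept and 0.11 with the class ending at 5%.

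The nuclear set, at 0.29, 0.0052 and 0.07, was at 0.72, -0.10 and 0.27 with TMM and at 0.77, -0.12 and 0.23 with the median of ratios. Cells weighted alike gave 0.16 in the low and 0.029 in the middle class. UMIs other than mt- as the total gave 0.018 in the middle and 0.19 in the high class. In the low class it was 0.33 with at least 2000 genes and 0.34 without raised chromosome 8, and in the middle class 0.025 with the class ending at 5%. The median of its members moved from -0.03 to -0.13 with TMM and -0.15 with the median of ratios. Those scalings moved the 6 members at least 25% higher to 3 and 3 and the 5 at least 20% lower to 14 and 14. The 5 became 2 with cells weighted alike, 3 per UMIs other than mt-, 3 with the class ending at 5% and 10 with no filter on low genes. Lower by 1.5-fold were 0 members, but 1 with members of at least 1 CPM (Atp5s) and 4 with no filter, as low genes then enter.

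Within the knockout library the shift of the nuclear set in the low class, 0.07, was 0.060 with at least 2000 genes, 0.12 without raised chromosome 8, 0.087 with cells weighted alike, 0.058 against a middle class ending at 5% and 0.13 per all UMIs. The shift in the high class, 0.43, was 0.38 with at least 2000 genes, 0.46 without cells with primitive endoderm markers, 0.46 without raised chromosome 8 and 0.074 per all UMIs, where the mt- UMIs enlarge the total. In the wild type the low shift of -0.20 was -0.25 with at least 2000 genes, -0.028 with cells weighted alike and -0.15 per all UMIs, and the high shift of 0.26 was 0.20, 0.31 and 0.0059 in that order. The correlations in the middle class ranged from -0.27 to -0.14 in the knockout and from -0.21 to -0.12 in the wild type. Depth limits the wild-type low class, with 286036 UMIs, and the high classes, with 582738 and 261927 UMIs.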

Other observations

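Coding length was set beside the shifts of the nuclear-encoded members after those shifts had been seen. Among low cells longer members stood higher. Spearman's rho between the longest annotated coding length and the log2 ratio of low over middle cells was 0.62 over 73 members in the knockout and 0.50 over 74 members in the wild type. Over all genes with a coding length it was -0.40 (6023 genes) and -0.08 (6334 genes). In the knockout the 36 members longer than 408 bases had a median shift of 0.39 and the 37 others of -0.0021. In the high class rho was 0.15 and 0.22 over 73 members, against 0.38 (7304 genes) and 0.43 (7216 genes) over all genes. The members are mostly short genes, genes are not independent replicates, and level and length were not separated.

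Lists of other mitochondrial genes also differed between the classes. Relative to the middle class and per UMIs other than mt-, the summed level of the citrate cycle genes was higher in the high class by 0.66 in the knockout and by 0.50 in the wild type on the log2 scale, while that of the import genes was at -0.29 and -0.36 and that of the mitochondrial ribosome at -0.10 and -0.16. Among low cells the citrate cycle genes were at 0.55 and 0.22 and the genes of the mitochondrial ribosome at 0.27 and -0.13.

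The share of the mt- UMIs from mt-Nd3 in the low class was 1.56% (knockout) and 0.832% (wild type), a difference in the same direction as in the other classes, on 131 and 8 UMIs. Cells of the knockout middle class with primitive endoderm markers (103 cells) held 4.47% mt- encoded and 3.02% nuclear-encoded UMIs, and the other 626 cells 4.29% and 2.95%.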
